A study of Homo sapiens with 10 samples.

Results

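The 10 genes described here, FASN, ACACA, ACLY, ACSS2, SCD, FADS1, FADS2, ELOVL5, ELOVL6 and LPIN1, encode enzymes of fatty acid synthesis, elongation, desaturation and glycerolipid assembly. They were taken by symbol from the 20535 genes listed in each library, and all 10 were among the 10127 that averaged 1 TPM or more, TPM being a transcript abundance scaled for length and for the total of its library. They were selected on the comparison of sgHS2 with sgGal4 libraries, in which several of them were known to be lower. The values from that comparison are therefore given as a description, with counts past a threshold beside those of all genes but with no test of the 10 genes drawn from them. The tests below are those between sgHS2 groups, comparisons that the selection did not use. The sgHS2 libraries themselves entered the selection, so these tests are not independent of it.

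RNA-seq was performed on K562 cells, a human erythroleukemia line, in 10 libraries of 5 groups with 2 libraries each. The sgGal4 libraries carried a nontargeting sgRNA, and the other 4 groups carried sgRNAs to HS2, an enhancer of the β-globin locus, together with a repressive epigenetic editor. The editors were dCas9 fused to KRAB alone (dCas9-KRAB, K) or to LSD1 alone (dCas9-LSD1, L), enCRISPRi-LK, which joins dCas9-LSD1 with MCP-KRAB recruited through MS2 hairpins in the sgRNA (LK), and enCRISPRi-KL, which joins dCas9-KRAB with MCP-LSD1 (KL). The cells received the constructs by lentivirus, the dCas9 fusions were doxycycline-inducible, and transduced cells were sorted by fluorescence as bulk populations. K, L, LK and KL stand below for the libraries so labelled. Which editor the sgGal4 cells carried is not given in the sources used here. KDM1A, which encodes LSD1, was at 25.2 and 33.5 TPM in sgGal4, at 105 and 84.2 TPM in the libraries labelled L, and between 26.6 and 30.6 TPM in those labelled K, LK and KL. ZNF10, the source of the KRAB domain, was at 128 and 136 TPM in L, 36.8 and 31.5 TPM in LK, 365 and 360 TPM in KL, and only 1.18 and 3.80 TPM in K, so these levels did not follow the constructs that the labels name. HBE1, an embryonic gene of the β-globin locus, ranged from 361 to 1019 TPM over the 8 sgHS2 libraries and stood at 1376 and 1620 TPM in sgGal4.

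Fatty acid synthesis starts from cytosolic acetyl-CoA, which ACLY makes from citrate and ACSS2 from acetate. ACACA carboxylates it to malonyl-CoA, the committed step, and FASN condenses these units into palmitate. ELOVL6 and ELOVL5 lengthen the chains, SCD introduces the double bond of oleate and palmitoleate, FADS2 and FADS1 desaturate the polyunsaturated chains, and LPIN1 makes the diacylglycerol from which triglycerides and phospholipids are built. Many of these genes, like those of cholesterol synthesis, are known targets of the sterol regulatory element-binding proteins SREBF1 and SREBF2.

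In the hg19 genome (GRCh37, GENCODE annotation) all 10 are protein-coding. FASN lies at chr17:80036214-80056170, ACACA at chr17:35441927-35766927 and ACLY at chr17:40023170-40086795, each on the minus strand. ACSS2 lies at chr20:33459949-33515765 and SCD at chr10:102106990-102124583, both on the plus strand. FADS1 (chr11:61567099-61596790, minus strand) and FADS2 (chr11:61560452-61634826, plus strand) overlap, and 4.79% of the exonic bases of FADS1 are also exonic in FADS2. Strand use in counting is not given in the sources used here, so reads from that overlap could have been assigned to either gene. ELOVL5 lies at chr6:53132196-53213977 and ELOVL6 at chr4:110967002-111120355, both on the minus strand, and LPIN1 at chr2:11817721-11967535 on the plus strand.

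The RefSeq promoter table (GRCh38.p14) held 9 of the 10 genes, all except FASN, and the 250 bases before each annotated start were searched on both strands for 4 motifs. The sterol regulatory element core TCACNCCAC was in none of the 9, against 1.09% of all 27305 genes in the table. With so low a share, none of 9 says little. Variants of the element and sites outside the 250 bases were not searched. A gene was counted for a motif if the window of any of its annotated starts held it. The NF-Y box CCAAT was present for 5 (ACACA, ACLY, ACSS2, SCD and ELOVL5) against 37% of all genes, the Sp1 box GGGCGG for 8 against 46.2%, and the E-box CACGTG for ELOVL5 against 7.73%. The windows of SCD, a gene with every sgHS2 library below sgGal4, and of ACLY, whose groups overlapped, are shown with the matches to CCAAT or GGGCGG on either strand in capitals, 5′ to 3′ on the strand of the gene. They match the hg19 sequence at chr10:102106740-102106989 (plus strand) and chr17:40075276-40075525 (minus strand).
SCD: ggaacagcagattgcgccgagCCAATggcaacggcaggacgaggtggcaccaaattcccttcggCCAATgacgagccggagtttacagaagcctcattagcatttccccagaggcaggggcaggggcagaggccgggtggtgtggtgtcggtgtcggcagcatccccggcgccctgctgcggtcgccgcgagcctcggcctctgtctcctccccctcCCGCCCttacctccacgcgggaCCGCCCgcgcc
ACLY: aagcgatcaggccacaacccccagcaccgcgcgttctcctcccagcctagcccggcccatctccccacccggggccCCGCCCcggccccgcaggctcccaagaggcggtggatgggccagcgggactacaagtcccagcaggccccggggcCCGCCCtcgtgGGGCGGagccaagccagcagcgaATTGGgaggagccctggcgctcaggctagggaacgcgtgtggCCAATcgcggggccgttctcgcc
SCD and ACLY each held 2 CCAAT matches, beginning at bases -229 and -186 of SCD and at -65 and -23 of ACLY counted from the start. GGGCGG matched at 2 places in SCD and 3 in ACLY. Both windows shown thus held the same pair of motifs. ACLY has another annotated start, whose window (chr17:40075205-40075454) is not shown and held 2 CCAAT and 4 GGGCGG matches.

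Summed over the 10 genes, the sgGal4 libraries held 944 and 1015 TPM, whereas the 8 sgHS2 libraries held between 467 and 620 TPM. In 7 of the 10 genes (FASN, ACSS2, SCD, FADS1, FADS2, ELOVL6 and LPIN1) all 8 sgHS2 libraries lay below both sgGal4 libraries, an arrangement found in 5.29% of the 10127 genes. ACACA, ELOVL5 and ACLY were the 3 genes whose groups overlapped. In these bulk samples, fewer cells expressing a gene and less RNA per cell cannot be told apart. The study calls the replicates experiments, but the labels do not say whether they came from separate cultures, so the errors are those between these libraries and may be technical.

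**Figure D1:**
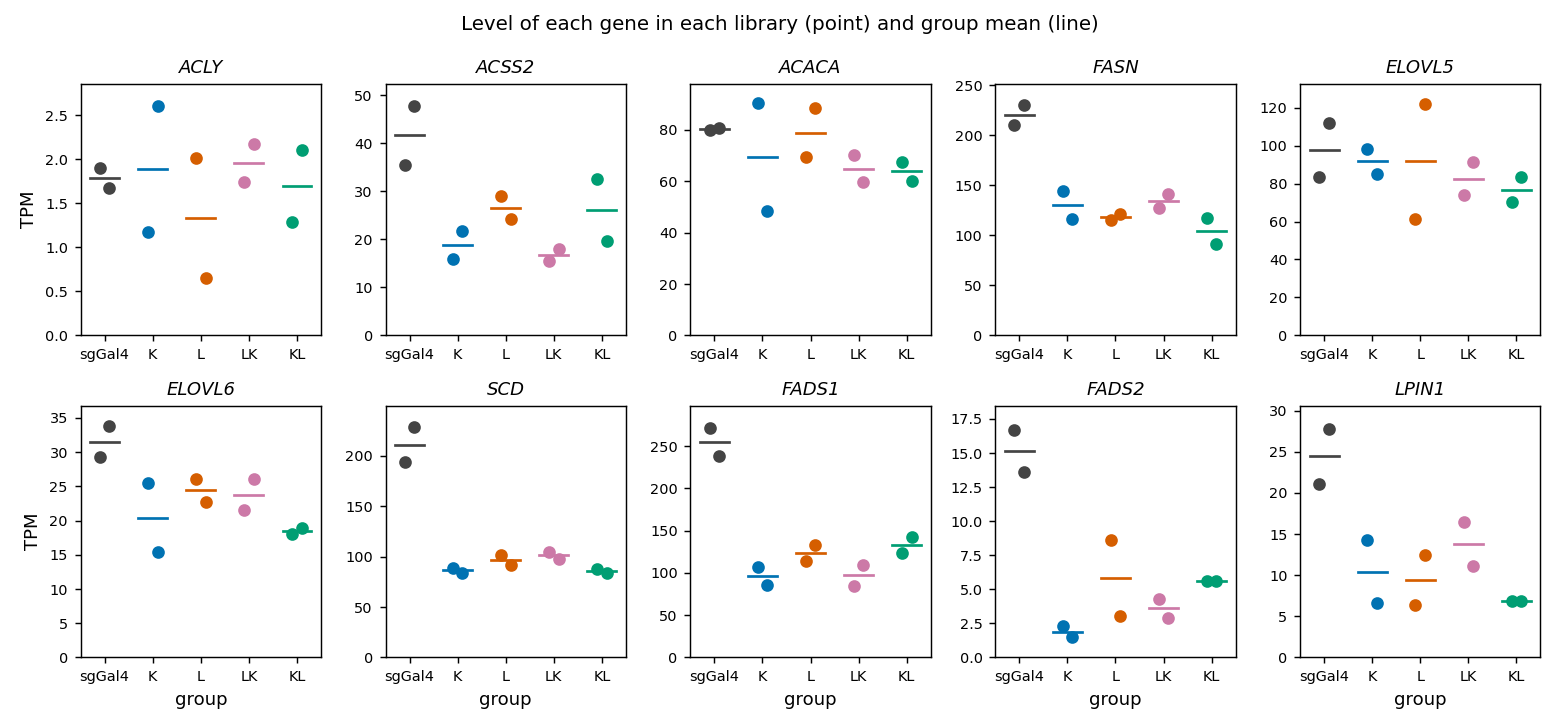
TPM (y axis, linear, from 0) of each of the 10 genes in every library, by group (x axis), with 1 point per library and a line at the mean of the 2 libraries. For SCD the 8 sgHS2 points sit between 84.2 and 105 TPM and the sgGal4 points at 194 and 229 TPM, whereas the points of ACLY, ACACA and ELOVL5 overlap between groups.

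Of the genes of acetyl-CoA supply, ACSS2 was lower in every sgHS2 library and ACLY was not. ACSS2 was at 35.5 and 47.8 TPM in sgGal4, at 15.8 and 21.7 TPM in K, 28.9 and 24.1 TPM in L, 15.5 and 18.1 TPM in LK, and 32.6 and 19.7 TPM in KL. The groups did not overlap with sgGal4, although KL replicate 1 came within 3 TPM of the lower sgGal4 library. On the log2(TPM + 1) scale, used for every difference below, ACSS2 differed from sgGal4 by -1.11 in K, -0.62 in L, -1.25 in LK and -0.68 in KL, each with a standard error of 0.29. ACLY was low throughout, at 1.90 and 1.67 TPM in sgGal4 and between 0.65 and 2.60 TPM elsewhere. The lowest and highest ACLY values, in L replicate 2 and K replicate 2, lay on either side of the sgGal4 pair, and its differences ran from -0.32 to 0.08 with a standard error of 0.46.

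At the committed step, ACACA was at 79.9 and 80.7 TPM in sgGal4, 90.4 and 48.5 TPM in K, 69.4 and 88.5 TPM in L, 70.3 and 59.7 TPM in LK, and 67.5 and 60.3 TPM in KL. The K and L libraries of ACACA straddled the sgGal4 pair, and those of LK and KL lay below it. The differences were -0.27, -0.03, -0.31 and -0.33 in K, L, LK and KL with a standard error of 0.25. FASN, which uses the product of ACACA, was at 210.3 and 230.2 TPM in sgGal4 and lay in a lower band of 91.3 to 144 TPM in every sgHS2 library. It was at 144 and 116 TPM in K, 115 and 121 TPM in L, 128 and 142 TPM in LK, and 117 and 91.3 TPM in KL, or 47.4% to 61.1% of the sgGal4 mean by group. The differences for FASN were -0.76 in K, -0.89 in L, -0.71 in LK and -1.08 in KL, with a standard error of 0.17. The ratio of FASN to ACACA was 2.63 and 2.85 in sgGal4 and 1.37 to 2.40 in the 8 sgHS2 libraries.

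The elongases differed from each other. ELOVL5, which acts on polyunsaturated chains, was at 83.4 and 112 TPM in sgGal4 and spread from 61.4 TPM (L replicate 1) to 122 TPM (L replicate 2) in the sgHS2 libraries. The L pair of ELOVL5 thus enclosed every other library, and the differences from sgGal4 (-0.08 to -0.33) were near their standard error of 0.27. ELOVL6, which extends palmitate to stearate, was at 29.3 and 33.8 TPM in sgGal4, 25.5 and 15.4 TPM in K, 26.2 and 22.7 TPM in L, 21.5 and 26.0 TPM in LK, and 18.0 and 18.9 TPM in KL. All sgHS2 libraries lay below sgGal4 for ELOVL6, with differences of -0.64, -0.36, -0.40 and -0.74 in K, L, LK and KL and a standard error of 0.27.

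The desaturases SCD, FADS1 and FADS2 were each lower in every sgHS2 library. SCD, FADS1 and FADS2 together held 481 and 482 TPM in the sgGal4 libraries and between 171 and 232 TPM in the others. SCD, the stearoyl-CoA desaturase, was at 194 and 229 TPM in sgGal4, 88.6 and 84.3 TPM in K, 102 and 91.9 TPM in L, 105 and 97.7 TPM in LK, and 87.6 and 84.2 TPM in KL. The 8 sgHS2 values of SCD were close to each other, and its replicates differed by at most 1.18-fold in any group. Its differences from sgGal4 were -1.27 in K, -1.12 in L, -1.05 in LK and -1.28 in KL (standard error 0.16), and its group means were 40.7% to 48.0% of sgGal4.

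FADS1, the delta-5 desaturase, was at 272 and 238 TPM in sgGal4, 107 and 85.3 TPM in K, 114 and 133 TPM in L, 85.0 and 109 TPM in LK, and 123 and 142 TPM in KL. FADS1 differed from sgGal4 by -1.40 in K and -1.39 in LK, and by -1.04 in L and -0.94 in KL, with a standard error of 0.18. FADS2, the delta-6 desaturase that acts before FADS1, was at 16.7 and 13.6 TPM in sgGal4, 2.32 and 1.48 TPM in K, 8.64 and 3.04 TPM in L, 4.32 and 2.89 TPM in LK, and 5.58 and 5.62 TPM in KL. Of the 10 genes, FADS2 had the lowest group mean relative to sgGal4 in K (12.5%) and in LK (23.8%), and LPIN1 in L and KL. The L pair of FADS2 differed by 2.84-fold. Its differences were -2.49 in K, -1.37 in L, -1.82 in LK and -1.28 in KL, with a standard error of 0.43. The neighbouring genes did not keep 1 ratio: FADS1 over FADS2 was 16.3 and 17.5 in sgGal4, 46.2 and 57.7 in K, 13.2 and 43.8 in L, 19.7 and 37.8 in LK, and 22.1 and 25.3 in KL.

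LPIN1, a phosphatidate phosphatase, was at 21.1 and 27.8 TPM in sgGal4, 14.3 and 6.57 TPM in K, 6.32 and 12.5 TPM in L, 16.4 and 11.1 TPM in LK, and 6.81 and 6.83 TPM in KL. The sgHS2 libraries all lay below sgGal4, and the K and L pairs overlapped each other. Its differences were -1.23 in K, -1.35 in L, -0.80 in LK and -1.69 in KL, with a standard error of 0.40.

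**Figure D2:**
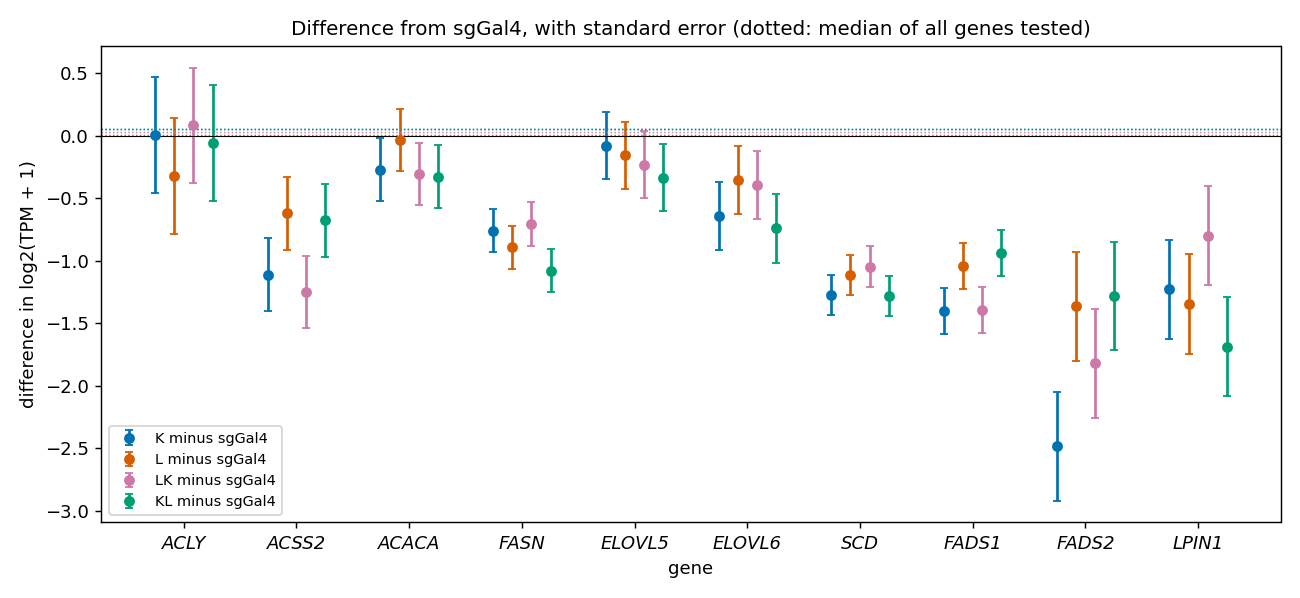
Difference from sgGal4 in log2(TPM + 1) (y axis) for each gene (x axis, in the order of the pathway) and each sgHS2 group (colour). Error bars are the standard error from limma with 2 libraries a group, and dotted lines are the median over the 10127 genes tested. SCD and FADS1 lie at or below -0.94 in all 4 groups, and ACLY, ACACA and ELOVL5 lie between -0.33 and 0.08.

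At an adjusted p under 0.05 (limma, Benjamini-Hochberg over 10127 genes), 4 of the 10 genes were lower in K (FASN, SCD, FADS1 and FADS2) where 0.741% of all genes were, 3 in L (FASN, SCD and FADS1) where 0.563% were, 4 in LK (ACSS2, SCD, FADS1 and FADS2) where 0.829% were, and 3 in KL (FASN, SCD and FADS1) where 0.731% were. None of the 10 was higher, against 0.879% of all genes in K, 0.306% in L, 1.18% in LK and 0.632% in KL. Both libraries lay below both sgGal4 libraries for 7 genes in K (18.4% of all genes), 7 in L (20.6%), 8 in LK (21.0%) and 8 in KL (18.6%). The median difference of the 10 genes was -0.94 in K, -0.76 in L, -0.75 in LK and -0.84 in KL, and that of all genes tested was between 0.005 and 0.06. Many of these calls depended on the fit. FASN in K passed in 4 of 19 alternative fits and in no fit that left out a library, FADS2 in LK in 5 of 18, ACSS2 in LK in 9 of 19, FASN in L in 12 of 19, and FADS2 in K in 13 of 18. FADS1 passed in 13 of 19 in L and in KL and in 17 of 19 in K and in LK, FASN in KL in 17 of 19, and SCD in 16 to 19 of 19 in the 4 comparisons. As the genes were selected on these contrasts, and the 4 contrasts share the sgGal4 libraries, nothing is read from these counts.

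The counts depended on single libraries. In K, 4 genes became 2 without K replicate 1, 1 without K replicate 2 and 2 without sgGal4 replicate 1. In L, 3 became 1 without L replicate 1, 0 without L replicate 2 and 1 without sgGal4 replicate 1. In LK, 4 became 0 without LK replicate 1, 1 without LK replicate 2 and 2 without either sgGal4 library. In KL, 3 became 1 without KL replicate 2. FASN, ACSS2, SCD, FADS1, FADS2, ELOVL6 and LPIN1 stayed lower than sgGal4 in all 4 comparisons under every alternative fit that held them. That was 19 fits, or 18 for FADS2, which averaged under 10 TPM. The smallest difference of SCD was -0.93 and that of ELOVL6 -0.26. Leaving out 1 library could not turn these signs, as every sgHS2 library of these genes lay below both sgGal4 libraries. Changes of filter, variance trend, replicate block or groups fitted left the estimates unchanged, so these fits do not test the sign either. The pseudocount of 0.1 TPM keeps the order of the libraries, so it could not turn these signs. ACACA and ELOVL5 kept a negative sign under every alternative fit in 2 of the 4 comparisons each, and ACLY in 0.

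Whether the groups labelled by editor differed from each other was tested between sgHS2 groups. KDM1A and ZNF10 levels did not follow the labelled constructs, so these are comparisons of labels. Dual and single effectors below likewise mean groups so labelled, and what editors they carried was not tested. None of the 10 genes differed at an adjusted p under 0.05 in limma between K and L, where 0.0395% of all genes did, between LK and KL (0.385%), between the dual-effector and single-effector groups (0.0889%), or in the moderated F test of any difference among the 4 groups (0.336%). At an unadjusted p under 0.05 these comparisons had 1, 3, 0 and 1 of the 10 genes, where 8.34%, 9.84%, 7.45% and 10.4% of all genes were past it. The 95% confidence intervals extended 0.35 to 0.99 to either side for the pairs of groups and 0.25 to 0.70 for dual against single effectors. These intervals are not adjusted over all genes, whereas the calls are. True differences of that size, and larger ones, could therefore be missed here. These tests use sgHS2 libraries that also enter the differences from sgGal4.

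SCD gave the narrowest intervals. It differed by -0.16 between K and L (95% CI -0.51 to 0.19, limma adjusted p = 0.846), by 0.24 between LK and KL (-0.11 to 0.58, adjusted p = 0.694), and by 0.03 between dual and single effectors (-0.22 to 0.28, adjusted p = 0.982). Differences beyond 0.28 between dual and single effectors thus lay outside its interval. FADS2 was lower in K than in L by the widest margin of the 10 genes (-1.12, CI -2.05 to -0.19, unadjusted p = 0.0214, limma adjusted p = 0.533), and ACLY was at the other end (0.33, CI -0.67 to 1.32).

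Between LK and KL the 3 genes at an unadjusted p under 0.05 pointed in different directions. LPIN1 was higher in LK (0.89, CI 0.04 to 1.74, unadjusted p = 0.0414, limma adjusted p = 0.478), as was FASN (0.37, CI 0.002 to 0.75, unadjusted p = 0.0489, limma adjusted p = 0.504). FADS1 was lower in LK (-0.46, CI -0.85 to -0.06, unadjusted p = 0.0262, limma adjusted p = 0.418), and ACSS2 had the lowest estimate (-0.57, CI -1.20 to 0.05). For dual against single effectors the estimates ran from -0.17 for ELOVL5 (CI -0.57 to 0.24) to 0.37 for FADS2 (CI -0.28 to 1.03), with adjusted p-values in limma from 0.845 to 0.989. In the F test of limma, FADS1 had the lowest value of the 10 genes (adjusted p = 0.473, unadjusted p = 0.0472).

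**Figure D3:**
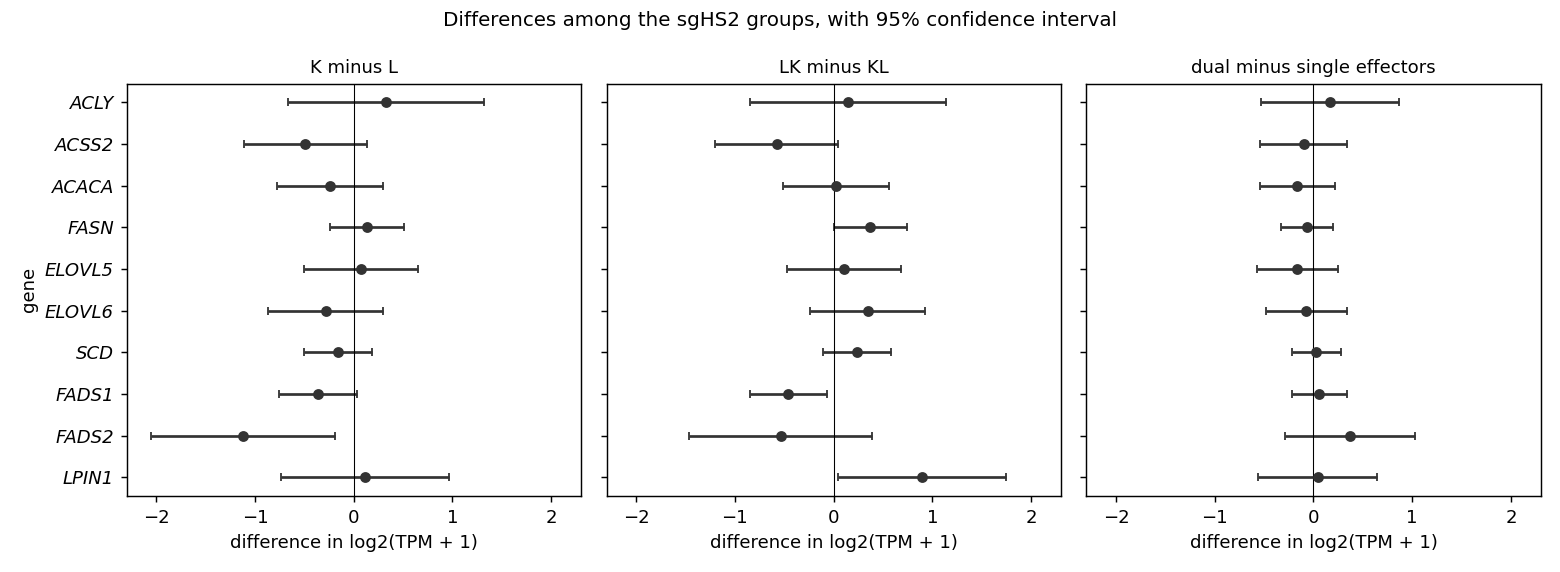
Differences among the sgHS2 groups in log2(TPM + 1) (x axis) for each gene (y axis), with points at the limma estimate and bars for the 95% confidence interval, for K minus L, LK minus KL and dual minus single effectors. Most intervals cross 0. Those that do not are FADS2 in K minus L and FASN, FADS1 and LPIN1 in LK minus KL, none of which passed adjustment over all genes.

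Genes around these 10 in the pathway were described with 7 further lists. Of 21 tested genes of sterol synthesis and uptake, 6 were lower than sgGal4 at an adjusted p under 0.05 (limma) in K, 6 in L, 5 in LK and 7 in KL, and 0 were higher. Of all genes, 0.741%, 0.563%, 0.829% and 0.731% were lower, and 0.879%, 0.306%, 1.18% and 0.632% higher. The median differences of the 21 genes were -1.10, -0.99, -1.08 and -1.08, and 19 to 20 of the 21 estimates were below 0 in each group. HMGCS1, which commits acetyl-CoA units to the mevalonate route, was at 66.2 and 105 TPM in sgGal4 and 14.6 to 32.0 TPM in the sgHS2 libraries. MSMO1, a sterol-4-methyl oxidase, was at 36.0 and 30.1 TPM and at 2.26 to 10.7 TPM. FDFT1, the squalene synthase, was at 194 and 233 TPM and at 61.9 to 84.4 TPM, and IDI1, the isopentenyl diphosphate isomerase, at 86.3 and 102 TPM and at 23.1 to 41.0 TPM. SQLE was at 73.2 and 75.1 TPM in sgGal4 and at 17.7 to 33.4 TPM in the sgHS2 libraries. These 4 genes and SQLE had no overlap between sgGal4 and sgHS2 libraries and were past the threshold in all 4 comparisons. All sgHS2 libraries lay below sgGal4 in 5.29% of all genes tested. The list counts fell to 2 without K replicate 1, 0 without K replicate 2 and 3 without sgGal4 replicate 1 in K. They fell to 1 without L replicate 1, 2 without L replicate 2, 3 without sgGal4 replicate 1 and 2 without sgGal4 replicate 2 in L. In LK they fell to 2 without either LK library or sgGal4 replicate 1 and to 3 without sgGal4 replicate 2.

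Of the 16 tested regulators, INSIG1, which retains the SREBP complex in the endoplasmic reticulum and is itself an SREBP target, was lower in all 4 comparisons. INSIG1 was at 38.1 and 64.5 TPM in sgGal4, 5.17 and 5.68 TPM in K, 7.97 and 16.4 TPM in L, 13.7 and 4.96 TPM in LK, and 6.88 and 8.94 TPM in KL, with differences of -2.98, -2.02, -2.43 and -2.51 (standard error 0.44). The call for INSIG1 was lost in K without K replicate 2, in LK without LK replicate 2 or sgGal4 replicate 2, in KL without either KL library or sgGal4 replicate 2, and in L without any library except those of LK. No other regulator was past the threshold. SREBF2, the regulator of the sterol genes, was at 32.4 and 42.6 TPM in sgGal4 and at 14.7 to 24.3 TPM in the sgHS2 libraries, with differences of -1.08, -0.60, -1.04 and -1.08 in K, L, LK and KL. SREBF1, the regulator of the lipogenic genes, was at 46.5 and 67.5 TPM in sgGal4 and ranged from 31.6 to 60.4 TPM in the others, overlapping that pair. SCAP, the SREBP escort, was at 22.2 and 38.7 TPM against 19.4 to 31.7 TPM, and INSIG2 at 3.83 and 7.13 TPM against 0.48 to 3.66 TPM.

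Of the 9 tested partners of elongation and desaturation, FADS3 and CYB5A were past the threshold. FADS3, which lies beside FADS1 and FADS2 at chr11:61640991-61659523, was at 63.4 and 48.2 TPM in sgGal4, 26.5 and 12.1 TPM in K, 23.9 and 30.7 TPM in L, 14.5 and 13.8 TPM in LK, and 32.1 and 22.0 TPM in KL. FADS3 passed in K (-1.57) and LK (-1.89) but not in L (-1.0) or KL (-1.03), and whether these differ was tested between the pairs, where it passed in none. Its call in K was lost without K replicate 2, either LK library or sgGal4 replicate 1, and that in LK without either LK library or sgGal4 replicate 1. CYB5A, the cytochrome b5 that passes electrons to the desaturases, was instead higher, at 1.76 and 0.23 TPM in sgGal4 and 4.01 to 11 TPM elsewhere, and passed in L (2.15), LK (2.53) and KL (2.45). The CYB5A call was lost in L without either L library or sgGal4 replicate 2, in LK without either LK library, and in KL without KL replicate 1 or sgGal4 replicate 2.

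Of the 10 tested genes of fatty acid activation, ACSL4, the acyl-CoA synthetase of arachidonate, was at 12.2 and 19.3 TPM in sgGal4 and 2.78 to 5.62 TPM in K, L and LK, with 13.1 and 10.2 TPM in KL. It passed in K (-1.65) and L (-1.84), and in K the call was lost without any 1 of the 10 libraries and in L without any except K replicate 1 or 2. Among 7 fatty acid synthesis partners, 14 glycerolipid assembly genes and 22 genes of fatty acid oxidation, 0 passed in any comparison with sgGal4. Of all genes, 0.306% to 1.18% passed in each direction per comparison, so 0 in lists of these sizes says little. SLC25A1, the mitochondrial citrate carrier, was listed at 0 in all 10 libraries, as were NSDHL and EBP of cholesterol synthesis, and an exact 0 in these values can be a failed estimate. The median differences of the oxidation genes were 0.07, 0.04, -0.06 and 0.10 in K, L, LK and KL. No gene of these lists passed in the comparisons between sgHS2 groups, where 0.0395% to 0.385% of all genes did. The lists were chosen with results of these libraries known, so their counts are not independent evidence of direction.

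**Figure D4:**
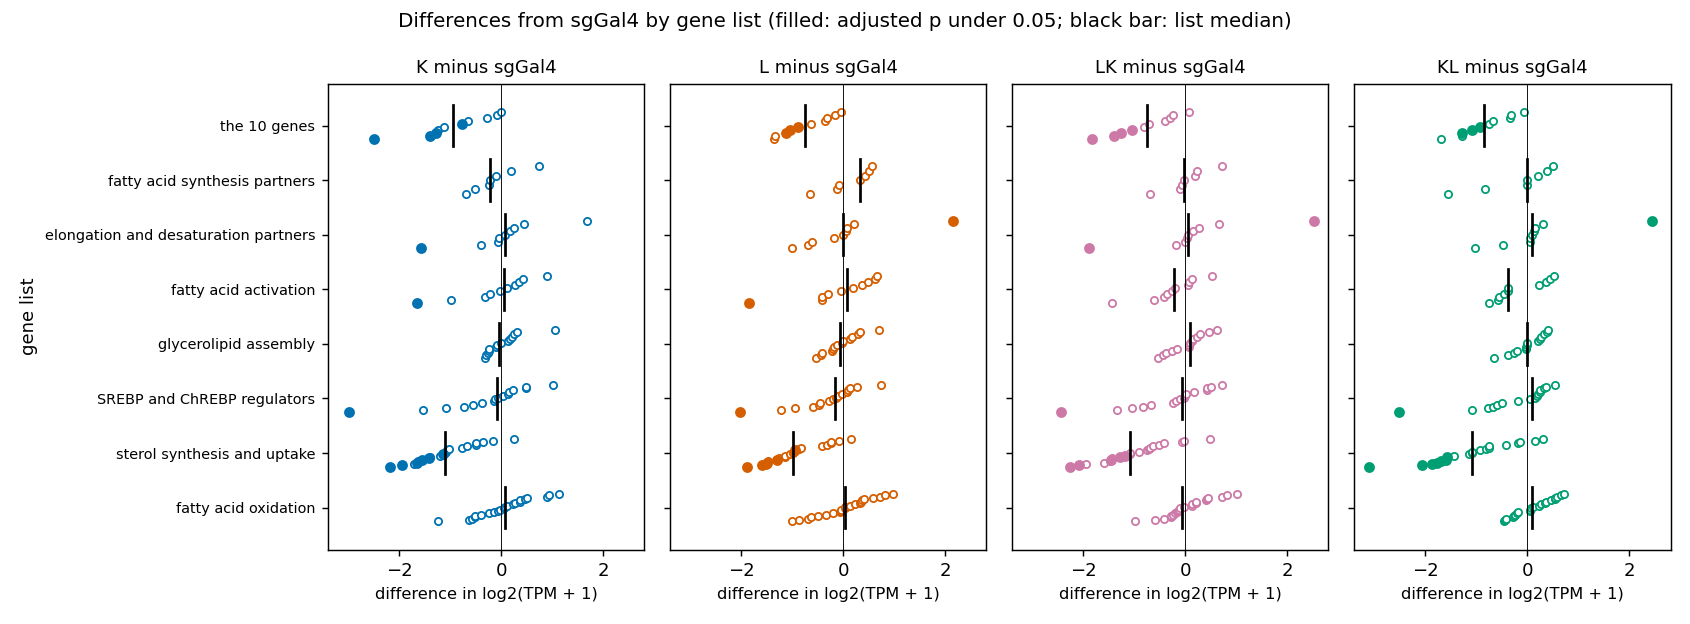
Differences from sgGal4 in log2(TPM + 1) (x axis) of every tested gene of the 10 and of the 7 other lists (y axis), 1 panel per sgHS2 group. Filled points passed an adjusted p under 0.05, open points did not, and black bars are list medians. The medians of the 10 genes and of the sterol list lie between -1.10 and -0.75, and those of the other lists between -0.38 and 0.33.

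The genes outside the 10 whose log2(TPM + 1) followed the mean of the 10 most closely over the 10 libraries were SERPINB9 (Pearson's r = 0.979), FDFT1 (0.975), ARHGAP18 (0.957), ARHGAP6 (0.955), ANXA1 (0.95), ATF3 (0.95), IDI1 (0.943), TIMP1 (0.943), PNRC1 (0.943) and SLC20A1 (0.941). These values mainly separate the 2 sgGal4 libraries from the rest: within the 8 sgHS2 libraries the same correlations ranged from 0.155 for TIMP1 to 0.890 for ARHGAP6. SERPINB9, a serine protease inhibitor, was at a mean of 43.4 TPM in sgGal4 and at 9.28 to 14.9 TPM in the sgHS2 libraries. TIMP1, a metalloproteinase inhibitor, was at a mean of 506 TPM and at 229 to 292 TPM.

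The libraries also differed in other respects. The 13 mitochondrial genes made up 53.6% of the listed TPM in sgGal4 replicate 1, 43.7% in replicate 2 and 39.9% to 46.6% in the sgHS2 libraries. With these genes removed and the libraries rescaled, 5, 3, 5 and 4 of the 10 genes were lower in K, L, LK and KL. Over all 10890 genes then tested, 115, 96, 137 and 131 were lower. The median difference of all genes was then -0.06, -0.04, -0.09 and -0.05, so the rescaling itself moved values down. All 12 K562 markers averaged 1 TPM or more. Their summed level was 3942 and 3950 TPM in sgGal4, 3404 to 3562 TPM in K, 4120 to 5002 TPM in L, 2226 to 2280 TPM in LK and 2680 to 2810 TPM in KL. The list holds HBE1, HBG1 and HBG2 of the targeted β-globin locus, and the sum was not split by gene. Of the 4 T cell markers CD3E and CD2 were listed at 0 throughout, and the summed level of the list was 26.1 and 33.6 TPM in sgGal4 and 1.65 to 21.3 TPM in the other libraries, CD3D being the only marker to average 1 TPM or more. The part of these levels in the results was not tested. The B cell, monocyte, fibroblast, adipocyte and hepatocyte lists summed to at most 7.94 TPM in any library, with all 3 hepatocyte markers and 3 of 4 adipocyte markers at 0.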

How the data were processed

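RNA-seq libraries of K562 cells were grouped by their titles into 5 groups of 2. The authors aligned reads to hg19 with STAR 2.5.2b, keeping reads with a unique location, and deposited 1 TPM value, computed with RSEM, per gene symbol and library. TPM keeps no record of reads and depth is unknown, a change in abundant transcripts moves all other values, and DESeq2, which the authors used and which needs counts, was not run. The paper names an Ovation kit and the labels a poly(A) and directional kit, and the annotation is not given in the sources used here. Genes averaging 1 TPM or more were fitted on log2(TPM + 1) in limma 3.58.1 (R 4.3.3), with all 5 groups in 1 fit (5 residual degrees of freedom), variance moderation with a mean trend, and Benjamini-Hochberg adjustment. The script was tested on simulated data. Standard errors and 95% intervals are from this fit, all tests are two-sided, and figures used matplotlib 3.10.9 under Python 3.11.15.

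The 10 genes, the other lists, the markers and the motifs were chosen with earlier results of these data known. The genes named were the 10, up to 3 with the largest change per list and comparison among those past the threshold, 5 regulators fixed by name, and the 10 most correlated. Replicate numbers did not pair the libraries: deviations of same-numbered libraries correlated at -0.021 to 0.023 between groups. Alternatives were a pseudocount of 0.1 TPM, no filter or a mean of at least 10 TPM, median-of-ratios factors, quantile normalization, removal of mitochondrial genes, no variance trend, only the groups compared, a replicate block, and leaving out each library. Alternatives for the other lists were added after the data were seen. Older symbols were matched through RefSeq.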

Additional observations from a re-analysis of the deposited data

How the results depend on the processing

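The direction of FASN, ACSS2, SCD, FADS1, FADS2, ELOVL6 and LPIN1 against sgGal4 held under all 19 alternative fits (18 for FADS2, which the filter at a mean of 10 TPM removes), 10 of which leave out a library. Those 10 could not turn it, as every sgHS2 library of these genes lay below both sgGal4 libraries. Nor could the pseudocount of 0.1 TPM, which keeps the order of the libraries. Changes of filter, variance trend, replicate block or groups fitted left the estimates unchanged. The fits that could turn it were median-of-ratios factors, quantile normalization and removal of mitochondrial genes. Counts of the 10 genes lower than sgGal4 (4, 3, 4 and 3 in K, L, LK and KL) became 0, 0, 0 and 1 without a variance trend, 2, 1 and 2 in K, L and LK without a filter on low values, and 1 in L and 2 in LK when the fit held just the groups compared. Calls fell over all genes too. Of 10127 genes, 75, 57, 84 and 74 were lower in the main fit and 7, 14, 11 and 43 without a trend. Without a filter, 25, 25, 26 and 42 of 14466 were lower. With just the groups compared, 19 in L and 40 in LK were. Leaving out 1 library gave 1 to 3 genes in K, 0 to 3 in L, 0 to 3 in LK and 1 to 4 in KL. A fit that leaves a group with 1 library assumes that it varies like the other groups. The sterol list had 7 genes lower in KL in the main fit, and 6 to 9 in alternatives that left out no single library. Its counts in K, L and LK (6, 6 and 5) became 0, 0 and 0 without a variance trend. They became 2 in L and 2 in LK without a filter, and 2 in L with just the groups compared. The highest in any alternative fit were 9, 7 and 6. INSIG1, FADS3, CYB5A and ACSL4 passed in no comparison without a filter, and with mitochondrial genes removed 2 or 3 regulators passed. Leaving out 1 library gave 0 to 6, 1 to 5 and 2 to 5 genes of that list. The cause was not tested in any of these.

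With a replicate block, 3 of the 10 genes were lower in each of K, L, LK and KL and 0 differed between sgHS2 groups. Of all 10127 genes, 57, 43, 67 and 69 were lower in K, L, LK and KL. The sterol counts were 6, 4, 5 and 7. Under the block FASN in K, ACSS2 in LK, INSIG1 in L and ACSL4 in K and L no longer passed.

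Between sgHS2 groups, 0 of the 10 genes passed under any alternative. On leaving out 1 library, the sign turned in 18 of their 30 differences. In K minus L these were FASN (-0.019 to 0.29), ACACA (-0.68 to 0.20), ACLY (-0.11 to 0.76), ELOVL5 (-0.41 to 0.57), ELOVL6 (-0.63 to 0.065) and LPIN1 (-0.39 to 0.62). In LK minus KL they were ACACA (-0.094 to 0.14), ACLY (-0.078 to 0.36) and ELOVL5 (-0.047 to 0.25). In dual minus single effectors they were FASN (-0.16 to 0.022), ACACA (-0.38 to 0.058), ACLY (-0.049 to 0.39), ACSS2 (-0.27 to 0.077), SCD (-0.0058 to 0.065), FADS1 (-0.032 to 0.15), ELOVL5 (-0.41 to 0.080), ELOVL6 (-0.25 to 0.10) and LPIN1 (-0.21 to 0.30). ACACA in LK minus KL also turned with quantile normalization (-0.00031) and with mitochondrial genes removed (-0.0017). With 2 libraries a group and no read counts, low genes such as ACLY and FADS2 cannot be given a detection limit.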

Other observations

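ACLY, the citrate lyase, did not exceed 2.60 TPM in any library, whereas FASN and ACACA of the same route did not fall below 91.3 and 48.5 TPM. Without read counts, low ACLY expression and a poor estimate of it cannot be told apart.

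The ratios of FADS1 and of SCD to FASN also varied between groups. FADS1 over FASN was 1.04 and 1.29 in sgGal4, 0.73 and 0.74 in K, 0.67 and 0.77 in LK, 0.99 and 1.10 in L, and 1.05 and 1.56 in KL, so the K and LK libraries lay below the other 6. SCD over FASN was 0.92 and 0.99 in sgGal4 and 0.61 to 0.92 in the sgHS2 libraries. These ratios were chosen after their values were seen and were not tested.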
